A study of Arabidopsis thaliana with 20 samples.

Results

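Giant cells and control root cells of Arabidopsis thaliana were compared here on the arrays amplified with One-Direct, a kit of NuGEN's WT-Ovation series; these are the samples whose titles carry OneDirect. They are 10 of the 20 arrays of the study and 6 of its 12 biological samples. Giant cells were represented by 3 biological samples on 5 arrays and control cells by 3 on 5, since 1 biological sample of each group had been split into 3 technical replicates. The log2 values of technical arrays were averaged within their sample, which leaves n = 3 on each side. The other 10 arrays carry the same cell types amplified with the WT-Ovation Pico kit, and their values are set beside those of the named genes, whose rule used One-Direct values alone; the genes and lists were nonetheless settled with earlier results of both kits known. Pico samples also enter the test of the difference between kits and a comparison of spread.

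All plants were of the Columbia ecotype, and every group came from infested roots. Seedlings aged 3 weeks, 5 to a plate, had received 1000 juveniles of Meloidogyne incognita, a root-knot nematode, and 21 days later cells were cut out by laser capture. About 80 cells made up a giant cell sample, with 5000000 square micrometres of section captured. A control sample held about 150 root cells (13000000 square micrometres) from stretches of the same infested roots that held no nematodes. Control cells are therefore cells of a parasitised plant, of mixed root types, and not of an uninfected one. Cell type also goes with the number of cells and the area captured, so these cannot be told apart. Captured One-Direct cells went straight into lysis buffer with no RNA purification. The labels do not say which plants a sample came from, and some may share plants, in which case p-values reflect technical spread as much as the spread between plants.

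Root-knot nematodes turn cells of the root vascular cylinder into giant cells, from which they feed for the rest of their lives. Giant cells grow to many times the size of their neighbours, pass through repeated nuclear division without cell division, and hold dense cytoplasm with thickened, ingrown walls. They are known as strong sinks for nutrients, and defence and wound responses are known to be dampened in and around them.

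Each array gave 1 linear signal intensity per probe set, scaled by the authors to a common mean, so every change below is relative to the array and not an amount per cell. Fewer cells of a type and less RNA per cell cannot be told apart in such data. Values were compared as log2(signal + 16), which understates changes where signal is low. Probe sets brighter than the array's median in 3 or more of the 6 samples were kept, which left 12120 of 22746. Of these, 6746 were listed with 1 gene.

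The 6 samples were not equally alike. Across the kept probe sets, which are not independent replicates, control samples 2 and 3 correlated at r = 0.756, while control sample 1 reached 0.60 and 0.531 with them. Giant samples 2 and 3 correlated at 0.796, and giant sample 1 at 0.721 and 0.664 with them. Giant sample 1 correlated with control sample 2 at 0.732, above its values with its own group; these are the 2 samples averaged over 3 arrays. Sample 1 of both groups thus stood apart, and values without control sample 1 are given below. Median signals per sample were 168 to 220 in control and 249 to 311 in giant cells and did not overlap. The GAPDH control probe sets had a log2 3'/5' signal ratio of 3.46 ± 1.02 (SD, n = 3) in the control samples and of 2.27 ± 0.179 in the giant samples, also without overlap. The other 3'/5' ratios overlapped: a further GAPDH pair differed by -0.52 (giant minus control, exact permutation p = 0.4), actin by -0.53 (p = 0.2) and ubiquitin by 0.24 (p = 0.9). Control sample 1 had the highest of each of these ratios among the controls. Its first GAPDH ratio was 4.63 against 2.77 and 2.975 in control samples 2 and 3, and its ubiquitin ratio 4.10 against 2.33 and 1.98. Its further GAPDH ratio was 2.31 against 0.73 and 1.32, and its actin ratio 3.63 against 3.16 and 2.82. The brightest 1% of probe sets held 13.7% ± 2.05 of the summed signal in control and 10% ± 1.49 in giant cells. In control samples 1 to 3 this share was 16.01%, 12.25% and 12.71%. The differences in median signal, first GAPDH ratio and brightest share each reached p = 0.1 in a two-sided exact permutation test, the smallest p that 3 against 3 can give, and an adjusted p of 0.2 over 6 measures. Their part in the gene differences was not tested.

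Markers of other cells could be read only in part, because many probe sets of the array are not listed with a gene. Of the 9 endodermis and 3 root meristem markers, 0 were named on the array. The 2 root hair markers, EXPA7 and EXPA18, summed to signals of 32.7 to 78.9 in control and 32.4 to 96.6 in giant cells, below the array medians in every sample. The single phloem marker, the sucrose exporter SWEET11, was at 169, 669 and 195 in control samples 1 to 3 and at 95.0, 108 and 17.5 in giant samples, without overlap. The 2 green tissue markers, RCA and PSAE-1, summed to 122 to 337 in control and 400 to 777 in giant cells, also without overlap. RCA by itself overlapped, at 86.5, 271 and 262 in control and 561, 267 and 665 in giant cells. PSAE-1 did not overlap but was below the array median in every sample. In Pico RCA had a log2 change of 0.27 (limma adjusted p = 0.788). SWEET11 was at 2329, 1428 and 986 in control and at 5.81, 80.9 and 1.3 in giant cells there, without overlap. GUT2 for xylem (231 to 711 against 295 to 739) and LHW for the stele (461 to 2127 against 1536 to 1816) overlapped, as did the sum of the 2 cortex markers (62.5 to 269 against 121 to 934). In Pico GUT2 and LHW did not pass (limma adjusted p = 0.112 and 0.148). The cortex marker AT1G09750 was at 202, 3133 and 333 in Pico control and 23.8, 7.61 and 21.85 in Pico giant cells, without overlap. The other cortex marker, AT1G62500, overlapped there (-1.26). The makeup of the samples is thus only partly checked, and its part in the results was not tested.

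With only these 6 samples in the fit, limma called 0% of the probe sets at an adjusted p under 0.05, that is 0 of 12120. At an unadjusted p under 0.05 there were 1722, of which 1033 were higher and 689 lower in giant cells. The smallest adjusted p was 0.0562, and 121 probe sets had one under 0.1. Differences were not small: 268 probe sets lay more than 2 log2 units higher and 279 more than 2 lower in giant cells. The spread between samples was large beside the typical change: the median residual SD was 0.679 log2 units and the median absolute change 0.588. For the same probe sets in the Pico samples these were 0.368 and 0.520. Nothing below is therefore said to have risen or fallen in the 6 One-Direct samples, and the values are given sample by sample. The count of 0 held without any other single sample, but without control sample 1 limma called 1.28% of the probe sets, 155 of 12120, with control cells then at n = 2.

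**Figure D1:**
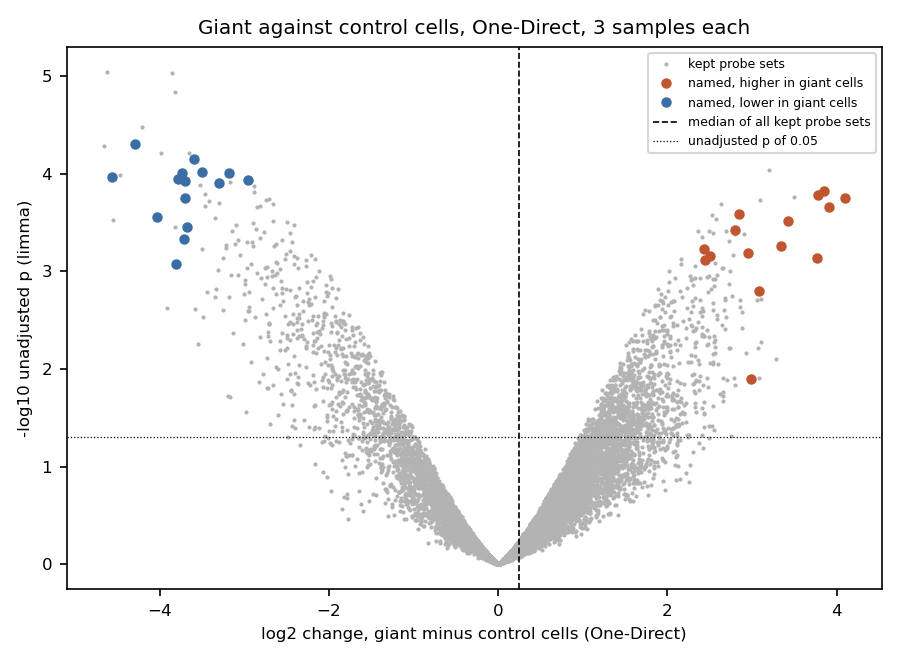
Log2 change between giant and control cells (x axis) against -log10 of the unadjusted limma p (y axis) for the 12120 kept probe sets of the One-Direct samples, n = 3 per group. Coloured points are the 30 named genes, the dashed line is the median change of 0.25, and 0 probe sets passed after adjustment.

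All 3 giant samples lay above all 3 control samples for 12.7% of the kept probe sets (1544) and below them for 7.78% (943). The median probe set was 0.25 log2 units higher in giant cells, and 62.3% of probe sets were higher by any amount. This tilt depended on the scaling. With quantile normalisation it remained, at a median change of 0.18, with 1419 probe sets above and 976 below without overlap. With each array centred on its median, the median change was -0.24, and the non-overlapping probe sets numbered 585 above and 1850 below. It also followed brightness: in the 3030 dimmest of the kept probe sets the median change was 0.65, with 17.5% non-overlapping above and 4.65% below. In the 3030 brightest the median was -0.09, with 7.43% above and 13.9% below.

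The genes described next were drawn from those whose groups did not overlap and whose brighter group exceeded the array median in every sample. In each direction, the 10 of largest change were taken, and then the 5 of smallest p among the rest. Their One-Direct values chose them and are a description.

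Of the genes named as higher in giant cells, AGL24 had the largest change. AGL24, a MADS-box factor known for promoting flowering, had signals of 225, 63.6 and 29.15 in control samples 1 to 3 and of 945, 2339 and 1905 in giant samples. The dimmest giant sample was 4.20 times as bright as the brightest control. The log2 change was 4.10 (SE 0.68, limma adjusted p = 0.0644). HAT2, a homeodomain-leucine zipper factor known as an early auxin-responsive gene, had signals of 5.57, 118 and 157 in control and of 907, 972 and 1365 in giant cells. Control sample 1 held almost no HAT2 signal, and the giant samples lay close together. The log2 change was 3.77 (SE 0.76, limma adjusted p = 0.0927), and 2.83 without control sample 1.

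POLH encodes DNA polymerase eta, which copies past damaged bases. Its signals were 55.8, 69.5 and 6.69 in control and 440, 426 and 837 in giant cells, a log2 change of 3.42 (SE 0.61, limma adjusted p = 0.0748). All control samples were dim, under the array median, and all giant samples were above it. RRP41 encodes a core subunit of the RNA exosome, which trims and degrades RNA. Its signals were 1.12, 262 and 236 in control and 846, 865 and 770 in giant cells. The giant samples were nearly equal, and control sample 1 stood far below the other controls. The log2 change was 2.99 (SE 0.96, limma adjusted p = 0.228) and was 1.67 without control sample 1.

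SBT3.12, a subtilisin-like protease, had signals of 85.6, 155 and 171 in control and of 692, 1420 and 1158 in giant cells (log2 change 2.84, SE 0.49, limma adjusted p = 0.0748). AT2G31110 (TBL40), of the trichome birefringence-like family known for wall polysaccharide acetylation, had signals of 28.5, 150 and 21.96 in control and of 725, 1087 and 864 in giant cells. The dimmest giant sample was 4.04 times as bright as the brightest control for SBT3.12 and 4.85 times for AT2G31110. The log2 change of AT2G31110 was 3.78 (SE 0.62, limma adjusted p = 0.0644).

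Other genes that were higher carry a locus name only. AT5G05010 had signals of 31.7, 248 and 140 in control and of 1577, 1177 and 1056 in giant cells, a log2 change of 3.34. AT2G21130 had signals of 196, 196 and 448 in control and of 1773, 2658 and 1446 in giant cells, a log2 change of 2.80. AT3G08880 had signals of 6.53, 80.8 and 19.48 in control and of 405, 579 and 904 in giant cells, a log2 change of 3.85. The giant samples of these 3 genes lay close together, the widest range being 2.23-fold (AT3G08880), while the controls of AT5G05010 ranged over 7.83-fold and those of AT3G08880 over 12.4-fold. The others were AT4G08210 (3.91), AT4G13320 (3.08), AT1G30070 (2.96), AT5G01660 (2.50), AT1G62150 (2.44) and AT1G26460 (2.43), each as a log2 change. Over the 15 genes the limma adjusted p ran from 0.0644 to 0.228. In 10 of the 15, giant sample 1 was the giant sample nearest to the controls, and in 8 control sample 1 was the lowest control.

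**Figure D2:**
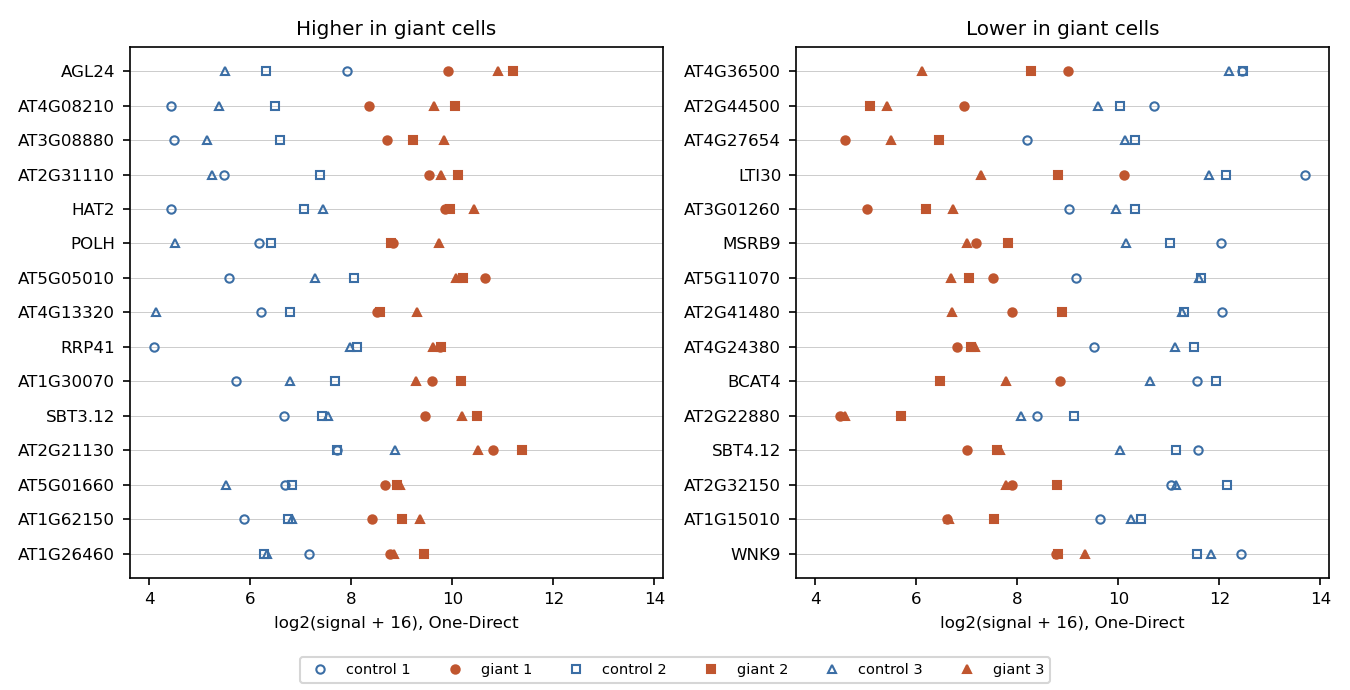
Log2(signal + 16) of the 15 named genes higher (left) and the 15 lower (right) in giant cells, one point per One-Direct biological sample, with symbols for sample 1, 2 and 3 (open blue, control; filled orange, giant). The groups do not overlap, as the choice of genes required; the control samples of HAT2 and RRP41 are widely spread because control sample 1 lay at 5.57 and 1.12.

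Among the genes that were lower in giant cells, BCAT4 acts in the chain elongation of methionine, the first stage of making aliphatic glucosinolates, the sulphur-rich defence compounds of the cabbage family. Its signals were 3017, 3905 and 1559 in control and 444, 72.4 and 202 in giant cells. The dimmest control was 3.51 times as bright as the brightest giant sample, which was giant sample 1. The log2 change was -3.68 (SE 0.67, limma adjusted p = 0.0764).

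LTI30, a dehydrin known from cold and drought responses, had signals of 13210, 4472 and 3540 in control and of 1088, 432 and 139.5 in giant cells (log2 change -3.81, SE 0.78, limma adjusted p = 0.0950). Control sample 1 was by far the brightest. MSRB9, a methionine sulfoxide reductase of the kind that repairs oxidised protein, had signals of 4175, 2056 and 1122 in control and of 129, 208 and 112 in giant cells (log2 change -3.74, SE 0.57, limma adjusted p = 0.0644). AT2G41480 (PRX25), a class III peroxidase of the secreted kind that acts on walls and hydrogen peroxide, had signals of 4214, 2496 and 2436 in control and of 223, 459 and 88.6 in giant cells. The dimmest control was 5.39 times as bright as the brightest giant sample for MSRB9 and 5.31 times for AT2G41480. The log2 change of AT2G41480 was -3.70 (SE 0.61, limma adjusted p = 0.0644).

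SBT4.12, another subtilase, had signals of 3056, 2230 and 1028 in control and of 112, 177 and 187 in giant cells (log2 change -3.50, SE 0.53, limma adjusted p = 0.0644). WNK9, of the with-no-lysine kinase family, had signals of 5474, 2998 and 3627 in control and of 421, 435 and 634 in giant cells (log2 change -2.96, SE 0.46, limma adjusted p = 0.0644). The 2 subtilases SBT3.12 and SBT4.12 were the only ones kept, of 7 named on the array, and they lay on opposite sides.

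The locus with the largest change, AT4G36500, had signals of 5574, 5619 and 4679 in control and of 499.8, 291 and 53.6 in giant cells. The controls were nearly equal and the giant samples ranged over 9.32-fold. Its log2 change was -4.57 (SE 0.71, limma adjusted p = 0.0644). AT2G44500 had signals of 1647, 1027 and 756 in control and of 108, 17.8 and 26.7 in giant cells, a log2 change of -4.29. The remaining genes were AT4G27654 (-4.03), AT3G01260 (-3.79), AT5G11070 (-3.72), AT4G24380 (-3.70), AT2G22880 (-3.60), AT2G32150 (-3.30) and AT1G15010 (-3.18), each as a log2 change. Over the 15 genes the limma adjusted p ran from 0.0644 to 0.0950.

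Arrays made from 1 split sample show the spread that arises after the split. Over the kept probe sets the median SD of the 3 technical arrays was 0.61 log2 units for control sample 2 and 0.368 for giant sample 1. Between the 3 biological samples, each taken as its first array, the median SD came to 0.736 for control cells and 0.485 for giant cells. The 3 arrays of giant sample 1 lay above the 3 of control sample 2 for 16.3% of the kept probe sets and below them for 11.2%. Among probe sets whose 3 samples a side did not overlap, this held the same way for 39.9% of those above and 52.4% of those below. The averages that set this non-overlap include the same arrays, so a larger share there is partly built in. The named genes had been chosen on averages that include these arrays, so their own counts, 15 of 15 lower and 13 of 15 higher, are a description only. The exceptions were AT4G08210, whose 3 control arrays ran from 3.02 to 663 against 223 to 463 on the giant arrays, and AT4G13320, with 2.17 to 387 against 254 to 431. These control arrays were made from 1 sample of cells.

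**Figure D3:**
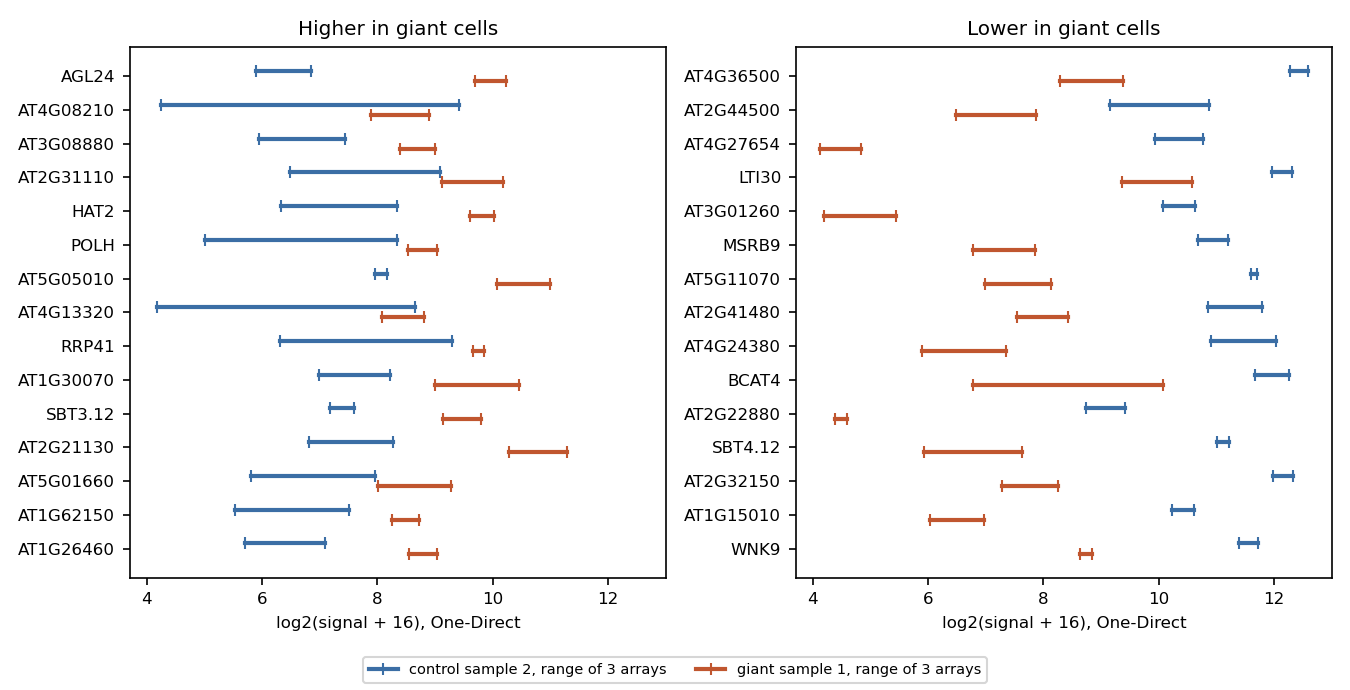
Range of log2(signal + 16) over the 3 technical arrays of control sample 2 (blue) and of giant sample 1 (orange), One-Direct kit, for the 15 named genes higher (left) and the 15 lower (right) in giant cells. Only AT4G08210 and AT4G13320 overlap, with control arrays from 3.02 to 663 and from 2.17 to 387.

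The Pico samples measured the same cell types in other captured samples. There, limma called 9.22% of the same 12120 probe sets as higher (1117) and 11.6% as lower (1401) in giant cells. Of the 15 genes named as lower in One-Direct, 15 fell in Pico, with log2 changes from -5.28 (AT3G01260) to -1.99 (AT2G22880). Of the 15 named as higher, 9 rose in Pico, 0 fell and 6 did not pass. AGL24 rose by 4.45 (limma adjusted p = 0.00431), AT2G21130 by 3.04 (adjusted p = 0.00047), HAT2 by 2.54 (adjusted p = 0.00206) and SBT3.12 by 2.30 (adjusted p = 0.00271), on the log2 scale.

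The 6 that did not pass in Pico were RRP41 (0.73), AT1G26460 (0.91), AT3G08880 (0.88), AT1G62150 (0.79), AT4G08210 (0.47) and AT4G13320 (-0.15). AT4G08210 and AT4G13320 are also the genes whose technical arrays overlapped. AT4G08210 was dim in all Pico samples, at 7.65, 21.4 and 8.86 in control and 25.9, 3.74 and 53.95 in giant cells. The One-Direct change was larger than the Pico change for 12 of the 15 genes named as higher and for 6 of the 15 named as lower; the genes had been chosen by their One-Direct size. The difference between kits itself was tested over all 12 samples, and limma called 0 of the 30 genes (adjusted p from 0.201 to 0.997). Over all probe sets it called 0.00825%, that is 1 of 12120.

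**Figure D4:**
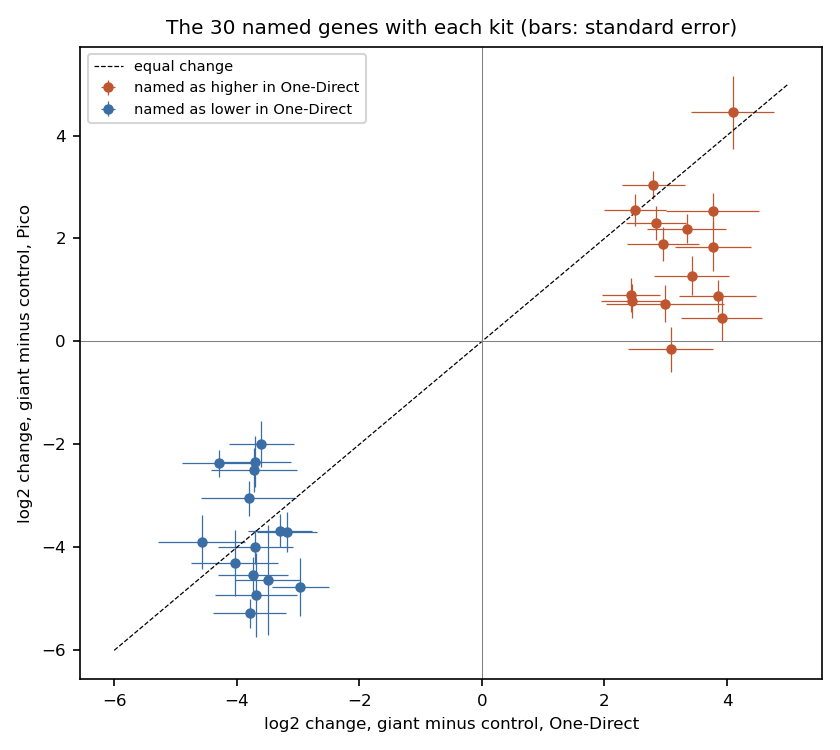
Log2 change between giant and control cells in the One-Direct samples (x axis) and in the Pico samples (y axis) for the 30 named genes, with standard errors from limma, n = 3 per group and kit. The 15 lower genes lie between -5.28 and -1.99 in Pico, and 14 of the 15 higher genes lie above 0, the exception being AT4G13320 at -0.15.

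Without control sample 1, limma called 23 of the 30 named genes, 10 higher and 13 lower, with adjusted p from 0.0151 to 0.0791 over the 30. Over all kept probe sets it called 1.28% (155 of 12120). The 30 genes had been chosen on these same samples for non-overlap and for size or p, so their count is a description only. The 7 not called were AT4G13320, RRP41, AT1G30070, AT2G21130, AT1G62150, LTI30 and BCAT4. The log2 change of AT5G05010 went from 3.34 to 2.64, that of AT5G11070 from -3.72 to -4.54 and that of AGL24 from 4.10 to 4.77.

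Gene families and lists were read next, by their kept members and against the shares of 12.7% above and 7.78% below over all probe sets. Of 50 lists and families, 22 had 3 or more kept members, 12 had 1 or 2 and 16 had 0. Medians are given as log2 changes, first as measured and then after subtracting the median change over all kept probe sets ("relative to all").

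Among the lists with 3 or more kept members, the glucosinolate genes had the lowest median after the calcium sensors. All 3 kept genes, of 3 named on the array, had giant samples below all controls, with a median of -1.73 (relative to all, -1.97). UGT74B1, which glucosylates the core structure, had signals of 1134, 1493 and 1445 in control and of 417, 200 and 733 in giant cells (log2 change -1.73, SE 0.54, limma adjusted p = 0.22). AT2G31790 had signals of 498, 372 and 275 in control and of 87.4, 131 and 161 in giant cells (log2 change -1.48, SE 0.47, limma adjusted p = 0.22). For both, as for BCAT4, no giant sample reached the dimmest control. All 3 genes fell in Pico, with log2 changes of -4.93 (BCAT4), -1.57 (UGT74B1) and -3.11 (AT2G31790). Over all kept probe sets 11.6% fell there.

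The glucosinolate importers lay on the same side. GTR1 and GTR2 belong to the nitrate and peptide transporter family but carry glucosinolates into cells. GTR2 had signals of 1039, 863 and 1751 in control and of 264, 112 and 61.1 in giant cells (log2 change -3.07, SE 0.58, limma adjusted p = 0.0809). GTR1 had signals of 3821, 1812 and 1530 in control and of 731, 631 and 181 in giant cells (log2 change -2.28, SE 0.64, limma adjusted p = 0.163). Neither gene overlapped between the groups. GTR2 fell by 2.70 on the log2 scale in Pico, while GTR1 had a log2 change of -0.10 there (limma adjusted p = 0.86); the difference of GTR1 between kits did not pass (limma adjusted p = 0.405).

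Nitrate transporters of the same family list lay on the other side. NRT2.5, a high-affinity nitrate transporter known from nitrogen starvation, had signals of 46.95, 339 and 111 in control and of 1241, 1294 and 643 in giant cells (log2 change 2.86, SE 0.67, limma adjusted p = 0.119). AT3G21670 (NPF6.4) had signals of 124, 25.1 and 171 in control and of 294, 655 and 418 in giant cells (log2 change 2.13, SE 0.64, limma adjusted p = 0.198). Every giant sample was above every control for both genes, and both rose in Pico, with log2 changes of 3.93 and 2.52. AT1G59740 (NPF4.3), the fifth kept member, overlapped between the groups (-1.46). The list was thus split, with 2 members above and 2 below.

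ATG8 proteins coat the growing autophagosome and bind its cargo. All 8 kept members, of 9 named on the array, were higher in giant cells, with a median of 1.14 (relative to all, 0.89) and 3 without overlap. ATG8D had signals of 648, 668 and 1002 in control and of 2376, 2443 and 1878 in giant cells (log2 change 1.53, SE 0.44, limma adjusted p = 0.177). ATG8C had signals of 707, 544 and 521 in control and of 1918, 2548 and 1024 in giant cells (log2 change 1.52, SE 0.49, limma adjusted p = 0.228). ATG8B was the third without overlap (1.19). APG8A and ATG8G overlapped only because 1 giant sample of each lay under a control sample. ATG8F, the brightest member, was at 6194 to 6808 in control and 6018 to 9408 in giant cells (0.26). In Pico 4 of the 8 rose (ATG8B, ATG8C, ATG8D and ATG8G) and 0 fell, where 9.22% of all kept probe sets rose. Without control sample 1 the changes of ATG8B, APG8A and ATG8G were 0.61, 0.41 and 0.41, and the median of the 8 was 0.41, against 0.18 for all kept probe sets.

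Of the 3 kept calcium sensors, of 8 named on the array, CML37 and CML38 were brighter in control samples 2 and 3 than in any other sample. CML37, a calmodulin-like protein, had signals of 542, 5450 and 3585 in control and of 418, 237 and 409 in giant cells (log2 change -2.63, SE 0.80, limma adjusted p = 0.204). CML38 had signals of 335, 3233 and 3030 in control and of 376, 636 and 115 in giant cells (log2 change -2.23, SE 0.93, limma adjusted p = 0.331). Control sample 1 thus lay near the giant samples for both genes, and for CML38 it was 9.67 times dimmer than the brightest control. The 3 kept members had a median of -2.23 (relative to all, -2.48), with 1 below all controls. Without control sample 1, CML37 was at -3.62 (limma adjusted p = 0.0231) and CML38 at -3.29 (adjusted p = 0.0541). CML37 and CML38 fell in Pico, with log2 changes of -4.79 and -2.50.

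Of the 4 kept WRKY factors and the single kept zinc finger factor, 1 each lay below all controls. WRKY53, a regulator of senescence and defence, had signals of 758, 4636 and 3438 in control and of 164, 459 and 179 in giant cells (log2 change -3.18, SE 0.73, limma adjusted p = 0.119). STZ, a zinc finger repressor known from salt and cold stress, had signals of 769.5, 2020 and 1761 in control and of 117, 371 and 60.5 in giant cells (log2 change -3.16, SE 0.68, limma adjusted p = 0.102). The groups did not overlap, although control sample 1 was the dimmest control for both. WRKY53 fell by 3.64 in Pico, whereas STZ had a log2 change of -2.64 there with an adjusted p of 0.07. Without control sample 1 the log2 changes were -3.97 for WRKY53 and -3.59 for STZ. The other 3 kept WRKY factors were higher in giant cells, WRKY20 without overlap (0.81), and WRKY6 (0.73) and ZAP1 (0.53) with overlap. Without control sample 1 these log2 changes were 0.55, 0.16 and 0.32. In Pico 2 of the 4 kept WRKY factors fell, WRKY53 included, and 0 rose, where 11.6% of all kept probe sets fell. The median log2 change of the 4 was -0.67 there.

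RALF peptides are secreted signals that act through receptor kinases at the cell wall. Of 7 kept, of 11 named on the array, 2 lay below all controls and 0 above, with a median of -0.78 (relative to all, -1.02). RALFL22 had signals of 4583, 1887 and 1222 in control and of 610, 170 and 187 in giant cells (log2 change -2.95, SE 0.67, limma adjusted p = 0.114). RALFL32 had signals of 1941, 2212 and 2270 in control and of 879, 199.5 and 94.2 in giant cells (log2 change -2.96, SE 0.72, limma adjusted p = 0.13). The controls of RALFL32 were nearly equal, and giant sample 1 was the giant sample nearest to them. Both fell in Pico, with log2 changes of -3.75 and -4.29.

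Of the 11 kept expansins, which loosen the growing wall, 9 were lower in giant cells, with a median of -0.57 (relative to all, -0.82), but only 1 lay below all controls and 1 above. EXPA24 lay above all controls, at 74.7, 84.1 and 210 in control and 249, 1348 and 584 in giant cells (log2 change 2.24, SE 0.67, limma adjusted p = 0.195). It was not higher in Pico (-0.50, adjusted p = 0.353). EXLA1, an expansin-like gene, lay below, at 3447, 6724 and 6353 in control and 2561, 1638 and 1867 in giant cells (log2 change -1.40, SE 0.48, limma adjusted p = 0.245), and fell by 2.28 in Pico. EXLA3 was at 262 in control sample 1 and at 7107 and 5533 in the others, against 620, 1365 and 169 in giant cells (-2.03). EXPA9 was brightest in control sample 1, at 5037 against 325 and 316 (-1.44). Without control sample 1 these log2 changes were -3.53 for EXLA3 and -0.14 for EXPA9. Of 4 kept xyloglucan endotransglucosylases, which cut and rejoin wall xyloglucan, XTH18 had a log2 change of -2.50 with overlap, and XTH19, EXGT-A3 and XTH32 lay within 0.5 log2 units of 0. In Pico 3 of these 4 fell and 0 rose, with a median log2 change of -2.67, where 11.6% of all kept probe sets fell.

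Beta-glucosidases held members far on both sides, with 2 of 12 above and 2 below. BGLU46, of the group that acts on monolignol glucosides, had signals of 3772, 2857 and 2524 in control and of 1098, 179 and 106 in giant cells (log2 change -3.35, SE 0.77, limma adjusted p = 0.119). PYK10, the main enzyme of the root ER body and known for splitting defence glucosides, had signals of 12730, 8255 and 10190 in control and of 7996, 917 and 171 in giant cells (log2 change -3.20, SE 1.12, limma adjusted p = 0.259). Giant sample 1 was close to the controls for PYK10, and the other giant samples were far below every control. BGLU28, known from sulphur starvation, had signals of 446, 145 and 29.3 in control and of 696, 1291 and 589 in giant cells (log2 change 2.46, SE 0.79, limma adjusted p = 0.228). BGLU32 was the other member above all controls (1.54). In Pico BGLU46 (-2.94) and PYK10 (-3.08) fell and BGLU28 (3.70) rose.

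MADS-box factors, AGL24 included, were mostly higher in giant cells. Of 14 kept, of 42 named on the array, 12 were higher and 3 lay above all controls (AGL24, AGL19 and AGL18), with a median of 0.71 (relative to all, 0.46). AGL19, another flowering promoter that is known to be expressed in roots, had signals of 195, 337 and 249 in control and of 1004, 463 and 937 in giant cells (log2 change 1.52, SE 0.49, limma adjusted p = 0.228), and rose in Pico (1.44). AGL18 was at 264, 529 and 163 in control and 908, 831 and 738 in giant cells (log2 change 1.48, SE 0.52, limma adjusted p = 0.259). AGL30 was 1.47 higher with overlap. AGL42, a gene of the root quiescent centre, was the single member below all controls (-0.54). Without control sample 1 the log2 changes of AGL78, AGL95 and AGL26 went from 0.71, 0.66 and 0.59 to -0.06, -0.27 and -0.39. The median of the 14 was then 0.77, against 0.18 for all kept probe sets. In Pico 2 of the 14 rose, AGL24 and AGL19, and 0 fell, where 9.22% of all kept probe sets rose. AGL18 did not pass there.

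Auxin response was represented by 3 kept Aux/IAA repressors of 10 auxin genes named on the array. IAA29 had signals of 39.3, 85.0 and 177 in control and of 319, 806 and 377 in giant cells (log2 change 2.22, SE 0.60, limma adjusted p = 0.154). IAA20 lay above all controls as well (0.85), and IAA30 overlapped (1.02). None of the 3 passed in Pico, where IAA20 lay on the other side of 0 (-0.87). Giant samples of IAA29 were all brighter than the brightest control, but its technical arrays ran from 31.6 to 1234 for giant sample 1 and from 2.13 to 239 for control sample 2, which overlapped.

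**Figure D5:**
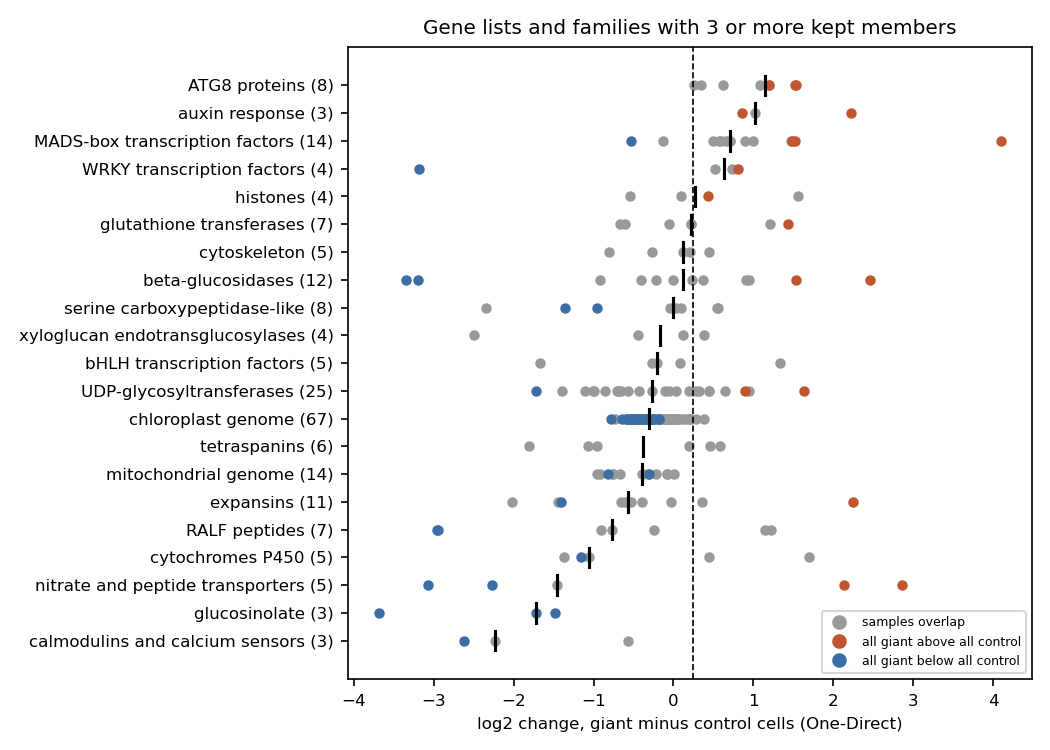
Log2 change between giant and control cells in the One-Direct samples for each kept member of the 21 lists and families with 3 or more kept members, annotated pseudogenes left out, with the number kept in brackets. Black bars are list medians and the dashed line is the median of all probe sets, 0.25; all 8 ATG8 members lie above it and all 3 glucosinolate members below 0.

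Other groups differed little in One-Direct or held members on both sides there. Of the 5 kept tubulins of the cytoskeleton list, 0 were without overlap, from TUB6 (-0.80) to TUA1 (0.45), although tubulin and actin arrays are known to be rebuilt in giant cells. Histones showed 1 of 4 above (HTB4, 0.43), and HTB2 was 1.55 higher with overlap. Glutathione transferases had GSTL3 above all controls (1.44) and no member below, of 7 kept. In Pico, however, 4 of these 7 fell and 1 rose, with a median log2 change of -2.32, where 11.6% of all kept probe sets fell. Of 25 UDP-glycosyltransferases matched by symbol, 2 lay above (UGT71B1, 1.63, and UGT76C2, 0.90) and 1 below (UGT74B1). The match did not take in AT2G31790 of the glucosinolate list. These counts of the glycosyltransferases, 2 and 1 of 25, were no larger than the shares over all probe sets. In Pico 6 of the 25 fell and 0 rose, beside the same 11.6% that fell over all kept probe sets. Of the nuclear list members described here as without overlap, the technical arrays of control sample 2 and giant sample 1 did overlap for GTR2, PYK10, EXPA24, AGL18, AGL19, AGL42, ATG8B, BGLU32, IAA20, IAA29, UGT71B1, UGT76C2 and WRKY20.

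Genes of the chloroplast genome were bright, with a median signal over the 67 kept genes of 3424 to 3879 in control and 2842 to 3304 in giant samples. Of these genes 30 lay below all controls and 0 above, but by small amounts, with a median of -0.31 (relative to all, -0.56). The largest was rbcL, the large subunit of Rubisco, with a log2 change of -0.78 (limma adjusted p = 0.489). With quantile normalisation the median of the list was 0.11 and with median centring -0.80, so its direction depended on the scaling. The 14 mitochondrial genes had a median of -0.39, with 2 below all controls, nad4L being one of them (-0.82). Their median signals were 3135, 3147 and 2767 in control and 3205, 1581 and 1521 in giant samples, so that giant sample 1 lay with the controls. Chloroplast and mitochondrial genes are brightly detected, and the brightest of all probe sets also tilted downwards, as given above; the part of brightness in this was not tested.

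Annotated pseudogenes, 340 of the kept probe sets, lay above all controls in 14 cases and below in 4, which is 4.12% and 1.18%. Protein-coding probe sets did so in 13.2% and 7.24%. The median signal of the pseudogenes was 587, 450 and 500.3 in control samples 1 to 3 and 329, 863 and 906 in giant samples. Giant sample 1 was thus the dimmest of all samples for them, and giant samples 2 and 3 were the brightest.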

How the data were processed

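Expression had been measured on Affymetrix arrays of 22810 probe sets, and the deposited values are linear signal intensity. Affymetrix Expression Console and MAS5 were used, per the submitters' processing notes, with versions and background steps not given in the sources used here. On the One-Direct arrays the trimmed mean (2% off each end) of the signal was 500, and each array was put exactly on the common mean. The 64 control probe sets served only for array measures. Log2(signal + 16) was averaged over technical arrays and fitted with limma 3.58.1 (lmFit, eBayes) in R 4.3.3, on the 6 One-Direct samples alone, with two-sided tests, a threshold of 0.05 and p-values adjusted by Benjamini-Hochberg over all 12120 kept probe sets. Pico samples were fitted likewise on the same probe sets, and the difference between kits over all 12 samples. The fit was tested on simulated data. The number of arrays limits the precision.

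Of 22746 probe sets, 13513 were listed with 1 gene in the platform annotation, 503 with several and 8730 with none there; symbols were updated through a RefSeq table of assembly TAIR10.1. The brightest probe set stood for a gene, and probe sets with several genes named none. From each list with 3 or more kept members up to 4 with the smallest p are named; further members were chosen after their values were seen. The genes, lists and tests were chosen with earlier results of these data known, and families were formed from gene symbols and corrected after the data were seen. Replicate numbers are shared between the groups, but deviations from the group means correlated at -0.07, -0.03 and -0.01 between same-numbered samples, so the numbers were not taken as pairs. Promoter and protein sequences were not used here. Alternatives are given in the closing section.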

Additional observations from a re-analysis of the deposited data

Results flagged for a closer look

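A probe set that is not listed with a gene was the single one whose giant cell change differed between the kits by limma's test of the difference (5.18 log2 units, SE 0.65, adjusted p = 0.0292). Its One-Direct signals were 450, 487 and 249 in control and 412, 1159 and 943 in giant cells, which overlapped (log2 change 0.99). In Pico they were 718, 636 and 392 in control and 13.2, 31.3 and 7.27 in giant cells, a log2 change of -4.19. The 3 technical arrays of One-Direct control sample 2 ran from 34.6 to 1855, so its mean rests on widely differing arrays. The call was lost with a pseudocount of 64, with quantile normalisation and with median centring.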

How the results depend on the processing

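The count of 0 calls in One-Direct held with a pseudocount of 1, with no filter, with a signal over 100 in all samples of a group, with the first technical array alone, and with the replicate number as a replicate block (0 called, 1688 at an unadjusted p under 0.05). Other settings made calls: 54 with a pseudocount of 64 (10 higher, 44 lower), 54 with quantile normalisation (5 and 49), 185 with median centring (11 and 174), 99 with a trended, robust spread (12 and 87), and 139 with 10 arrays and the sample as a random block (21 and 118). A spread shared with the Pico samples gave 614 (319 and 295), and sample quality weights 848 (380 and 468). Leaving out 1 sample gave 0 to 155 calls (0 to 38 higher, 0 to 117 lower), the 155 without control sample 1 and 0 without any other. Without sample 1 of both groups, added after the data were seen, 214 were called (35 and 179), and with fewer samples 3837 lay above and 2708 below without overlap. Leaving out 1 sample gave 2010 to 2728 above and 1108 to 1712 below. No filter gave 3560 above, the signal filter 2607, quantile normalisation 1419 above and 976 below, and median centring 585 above and 1850 below. Pico calls ranged from 1302 to 2103 on leaving out 1 sample (main 2518), with 1302 without giant sample 1, 1343 without giant sample 3 and 1668 without control sample 3; with the replicate block they were 1967. The 1 call for the difference between kits became 0 with a pseudocount of 64, quantile normalisation, median centring or the replicate block, and 0 to 7 on leaving out 1 sample. Of 570 values of the 30 named genes in 19 settings, 0 changed sign and 196 were called. The genes had been chosen without overlap, so leaving out a sample or changing the filter or the spread could not change a sign. RRP41 was called in none. The causes were not tested. The depth of a probe set is its signal: the lower it is, the more the log2 change depends on the pseudocount. This was not limited to signals under 16. AGL24, with control signals of 29.15 to 225, had a log2 change of 4.41 with a pseudocount of 1 and 3.48 with 64.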

Other observations

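Control sample 1 lay far below control samples 2 and 3 in several genes. TET8, a tetraspanin of secreted vesicles, was at 351 in control sample 1 and at 3188 and 3014 in the others, against 852, 518 and 165 in giant samples (log2 change -1.81, limma adjusted p = 0.405). XTH18 was at 191, 844 and 1263 in control and 237, 85.8 and 33.2 in giant samples. AT5G11070 was at 553, 3182 and 3095 in control, and AT4G24380 at 720, 2886 and 2200. AT4G27654 was at 275, 1270 and 1099. These genes were singled out after their values were seen. Pico control samples 1 to 3 were at 1553, 3283 and 5366 for TET8, 457, 412 and 439 for XTH18, and 1044, 3608 and 2460 for AT5G11070. They were at 356, 1284 and 1408 for AT4G24380 and 358, 1242 and 1546 for AT4G27654. Sample 1 was thus the lowest Pico control for 4 of these 5 genes and the highest for XTH18, and nothing in the labels ties a number to the same plants in both kits.

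Further list members had Pico calls. Of 5 kept bHLH factors, bHLH115, a positive regulator of the iron deficiency response, was at 1281, 1866 and 1662 in control and at 1298, 320 and 269 in giant samples (log2 change -1.68, limma adjusted p = 0.287), and fell by 3.63 in Pico. The other 4 had One-Direct log2 changes of -0.27 (bHLH104), -0.21 (bHLH34), 0.08 (ILR3) and 1.33 (bHLH121), and none passed in Pico. Of 8 kept serine carboxypeptidase-like genes, 2 lay below all controls and 0 above, against 7.78% below and 12.7% above over all kept probe sets. SCPL45 was at 4565, 3934 and 3785 in control and at 2177, 1368 and 1346 in giant samples (log2 change -1.35, limma adjusted p = 0.23), and fell in Pico (-1.003). Of the 8, 4 fell and 0 rose in Pico, where 11.6% of all kept probe sets fell. Of 5 kept cytochromes P450, 1 lay below all controls and 0 above, beside the same shares of 7.78% and 12.7%. CYP71B26 was at 261, 590 and 267 in control and at 214, 168 and 84.9 in giant samples (-1.16), and fell by 3.78 in Pico. CYP71B5 had the largest change the other way (1.70), with overlap. Of the 5 cytochromes P450, 4 fell and 0 rose in Pico, beside the same 11.6% that fell over all kept probe sets.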
